A study of Caenorhabditis elegans with 6 samples.

Results

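The tRNAs that stayed detectable after *rpc-1* RNAi in *Caenorhabditis elegans* are described here. They were taken from a table of 2526 short transcripts, 227 of which carry a nuclear tRNA id (143 annotated tRNAs and 84 annotated tRNA pseudogenes). A tRNA was kept when it had at least 10 counts in each of the 6 samples and when its mean CPM (count divided by the total of the sample, times 1000000) in *rpc-1* RNAi was under 4 times that in the vector control. This left 69 persisting tRNAs, of which 59 are annotated tRNAs and 10 are tRNA pseudogenes. The members were thus selected on the measured counts of these same samples, so their changes are given as a description and were not tested.

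The study sequenced short RNA of whole adult worms in 2 groups of 3 samples, to ask which products of RNA polymerase III (Pol III) change when the polymerase is partly lost. In the *rpc-1* RNAi group worms were fed, from the last larval stage (L4), bacteria that carry an RNAi clone against *rpc-1*, the gene for the largest Pol III subunit. In the vector control group they were fed bacteria with the empty vector, and the titles abbreviate these samples as wt. Feeding gives a partial knockdown in the whole animal, all worms were handled as for lifespan assays, and RNA was taken on the second day of adulthood. In the paper's lifespan assays, plates held fluorodeoxyuridine (FuDR) unless stated otherwise, and worms were kept warmer from L4 on than as larvae. The paper names Bristol N2 as its wild-type strain. Short RNA was selected by size and demethylated in every sample. No source says whether replicates came from separate cultures, so the spread between them may be technical, and in whole worms fewer cells of a type cannot be told apart from less RNA per cell. The *rpc-1* mRNA is not a short transcript, so the knockdown itself was not checked here.

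Pol III makes tRNAs, 5S rRNA and several other small RNAs. It is recruited to tRNA genes through promoter elements that lie inside the transcribed part. A mature tRNA pairs its anticodon with a codon and carries the matching amino acid, and mature tRNAs are among the most stable RNAs of a cell, so that their level reflects decay as well as synthesis. Leucine and serine tRNAs have a long variable arm and are longer than most others.

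Counts on short transcripts summed to between 19386526 and 21685824 in *rpc-1* RNAi samples and between 9362216 and 18464616 in vector controls, with vector control 2 the shallowest. At 10% false discovery rate (FDR) in DESeq2, 79 of 1083 transcripts with an adjusted p differed between the groups (7.29%). Among the 84 annotated tRNAs outside the set, 68 were tested, and 22 were called lower and 9 higher in *rpc-1* RNAi. Of 5S rRNA, 4 transcripts were tested and 0 were called, with 1 at an unadjusted p under 0.05 and 0 by edgeR. Of 7SL RNA (3 transcripts), RNase P RNA, RNase MRP RNA, Y RNA and 22 mitochondrial tRNAs, 0 were called by DESeq2, 0 had an unadjusted p under 0.05 and 0 were called by edgeR. With the replicate number as a block, DESeq2 called 2 of the 5S rRNAs, the Y RNA and 1 mitochondrial tRNA. The median log2 change (*rpc-1* RNAi minus vector control, defined below) was 1.56 over the 5 listed 5S rRNAs and -0.82 for the Y RNA. It was -0.25 for 7SL RNA, -0.26 for RNase P RNA, 0.19 for RNase MRP RNA and -0.15 for mitochondrial tRNAs. Few or no calls in these classes thus do not mean that their levels were equal in both groups.

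The count minimum decided most of the choice. Of the 227 ids, 74 had at least 10 counts in every sample. Of the 153 others, 19 missed the minimum in *rpc-1* RNAi only, 16 in vector controls only and 118 in both groups. The 2 lowest members were F37A4.t1 and the pseudogene D1046.t1, whose lowest count was 10 each, and just outside stood the pseudogenes T05H4.t1 and D1005.t1 with lowest counts of 9 and 8. The limit on the ratio removed 5 tRNAs and fell into a wide gap. The members nearest to it were the aspartate tRNAs C06G1.t4 and Y54G2A.t4, with mean CPM 3.46 and 3.51 times those of the vector control, and nearest above it were T14G8.t1 (proline) at 10.4 times and K11E4.t2 (lysine) at 13.2 times. There is no lower limit on the ratio, so the set holds 1 leucine tRNA, C17D12.t3, whose mean CPM was 1358-fold lower in *rpc-1* RNAi. The word persisting fits it only in the sense of the count minimum.

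Most persisting tRNAs were somewhat lower in *rpc-1* RNAi, and a minority were higher. The change of a tRNA is given as the difference of group means of log2(normalized count + 1), *rpc-1* RNAi minus vector control, with counts divided by DESeq2 size factors. Its median over the 69 was -0.55, with quartiles at -1.24 and -0.10, and it was below 0 for 53 of them. It was below -1 for 23 and above 1 for 5, where 35.9% of all 817 transcripts averaging 10 or more normalized counts were past 1 in either direction. Over the 687 transcripts without a tRNA id whose normalized count averaged 10 or more, the median was 0.16, and over the 61 other tRNA ids at that level it was -2.20. By same-numbered pair of samples the median over members was -0.63, -0.32 and -0.81. Without *rpc-1* RNAi 1 the median was -0.96, and without vector control 1 it was -0.30.

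**Figure D1:**
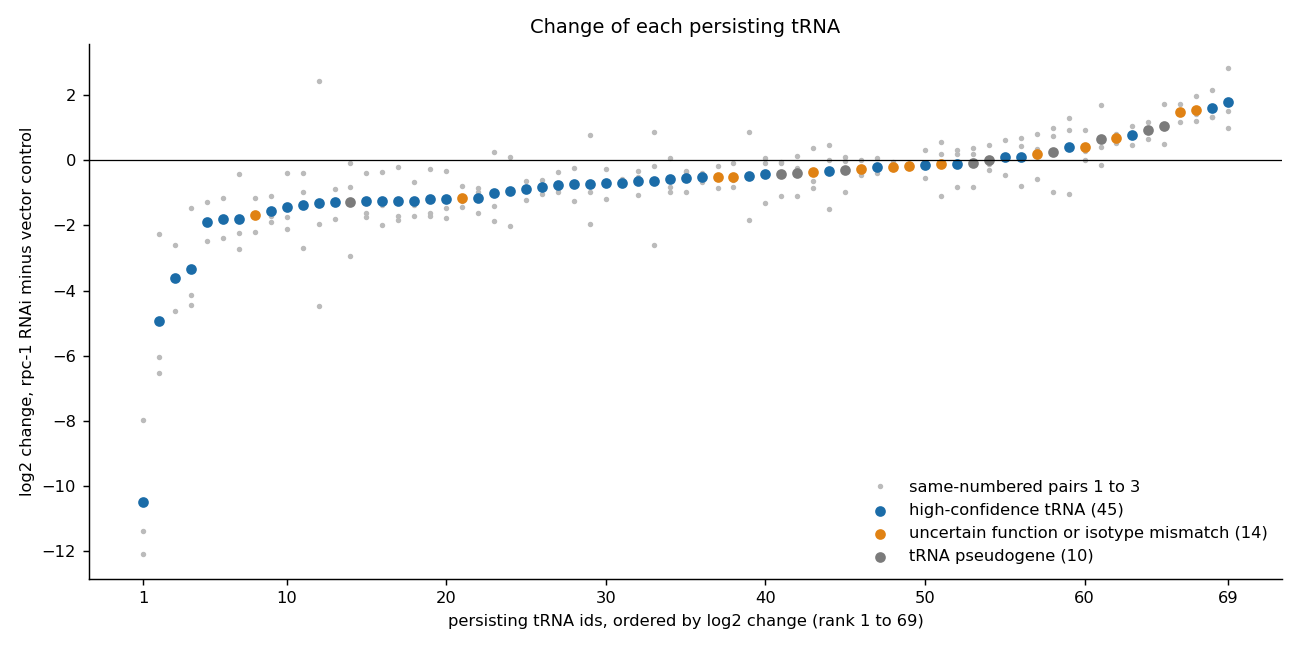
Log2 change (*rpc-1* RNAi minus vector control, vertical axis) of the 69 persisting tRNAs in rank order (horizontal axis). Large points are differences of group means, coloured by annotation class, and small grey points are the 3 same-numbered pairs of samples. The order runs between -10.48 (C17D12.t3) and 1.78 (Y54G2A.t4), and most points lie below 0.

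The changes had an SD of 1.63 over the members, and 1.12 without C17D12.t3. The plot of ordered changes shows a long tail at the low end with 4 tRNAs far below the rest and a short tail at the high end. The rule limits the high end only, so this difference between the ends follows in part from the choice of members. The 5 tRNAs removed by the limit on the ratio had changes between 3.23 and 3.85. Over the 687 transcripts without a tRNA id the SD was 1.65, and over the 61 other tRNA ids it was 6.12. The groups did not overlap for 13 members, 8 lower and 5 higher in *rpc-1* RNAi, where 21.5% of the 817 transcripts had groups without overlap (10.3% lower and 11.3% higher). All 3 same-numbered pairs were lower for 35 members (25.1% of the 817 transcripts) and higher for 9 (28.3%). The choice of members used this contrast, so nothing is read from these counts.

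DESeq2 called 4 of the 68 members with an adjusted p at 10% FDR, all lower in *rpc-1* RNAi: C17D12.t3, C53C7.t2, Y7A5A.t4 and K11H3.t1 (background 7.29%, of which 4.16% lower and 3.14% higher). It called 0 higher, with 4 higher at an unadjusted p under 0.05, and edgeR called 2 lower and 0 higher (background 7.16%, of which 3.77% lower and 3.39% higher). Same-numbered samples of the 2 groups deviated together, clearly in pairs 1 and 3 and weakly in pair 2. No source says what the numbers stand for. With the replicate number as a block DESeq2 called 25 members lower and 6 higher, among 278 of 959 transcripts (29.0%, of which 14.9% lower and 14.1% higher). With the block edgeR called 9 lower and 3 higher (background 18.5%, of which 10.2% lower and 8.29% higher). The 6 called higher by DESeq2 with the block were C06G1.t4, C34E11.t1, F22F1.t5, F47E1.t3, Y54G2A.t4 and ZK380.t2. Without *rpc-1* RNAi 1 the fit without the block called 19 lower and 3 higher (background 19.1%, of which 12.9% lower and 6.14% higher). The 2 called by edgeR without the block were C17D12.t3 and Y7A5A.t4. When the counts of a tRNA and of a listed transcript on its opposite strand were summed, an alternative added after seeing the data, DESeq2 called C53C7.t2, Y7A5A.t4 and C16H3.t1 lower (background 12.3%, of which 6.13% lower and 6.13% higher). C17D12.t3 and K11H3.t1 were then not called, and C06G1.t4, F47E1.t3 and Y54G2A.t4 were called higher. The count of calls among persisting tRNAs thus depended on how the spread between samples was modelled.

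The lowest change belonged to C17D12.t3, a leucine tRNA with anticodon AAG (chromosome I, 11585370 to 11585451, minus strand, WBcel235), inside an intron of a gene on the same strand. Its normalized counts were 111, 143 and 14.9 in *rpc-1* RNAi, against 298483, 36056 and 70051 in vector controls. The change was -10.48, and the DESeq2 log2 fold change was -10.55 ± 1.05 (SE). It made up 0.0637%, 0.206% and 0.0327% of all counts on persisting tRNAs in *rpc-1* RNAi, against 37.5%, 25.6% and 33.6% in vector controls.

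The next 4 were serine tRNAs. C53C7.t2 (anticodon CGA, chromosome X, 13046366 to 13046447) had normalized counts of 24.8, 362 and 22.7 in *rpc-1* RNAi, against 1686, 1760 and 2174 in vector controls. Here the controls lay close together and *rpc-1* RNAi 2 stood above the other RNAi samples. The second serine tRNA with anticodon CGA, Y7A5A.t4 (chromosome X, 15773331 to 15773412), had 1236, 2263 and 964 in *rpc-1* RNAi, against 30601, 13741 and 11956 in vector controls. K11H3.t1 (anticodon AGA, chromosome III, 9862022 to 9862103) had 136, 376 and 44.8 in *rpc-1* RNAi, against 2398, 1032 and 988 in vector controls. In all 3 the groups were well apart, and the log2 fold changes were -3.78 ± 1.08, -3.66 ± 0.74 and -2.99 ± 0.91 (SE). Without *rpc-1* RNAi 2 those of C53C7.t2 and K11H3.t1 were -6.32 and -4.04. K07A1.t1 (anticodon TGA) had 1583, 528 and 356 in *rpc-1* RNAi, against 5984, 1283 and 1980 in vector controls, and here *rpc-1* RNAi 1 lay above vector control 2. The sixth was C18A11.t1, a proline tRNA with anticodon AGG, with 168, 38.0 and 58.3 in *rpc-1* RNAi, against 377, 202 and 216 in vector controls, so that its groups did not overlap.

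At the other end stood 2 aspartate tRNAs. Y54G2A.t4 (anticodon GTC, chromosome IV, 2808355 to 2808426) had normalized counts of 68.5, 80.6 and 71.1 in *rpc-1* RNAi, against 23.1, 39.9 and 9.2 in vector controls. C06G1.t4 (the same anticodon, chromosome X, 16617892 to 16617963) had 140, 197 and 199 in *rpc-1* RNAi, against 54.9, 77.8 and 44.1 in vector controls. In both the RNAi samples lay above all controls, with log2 fold changes of 1.64 ± 0.80 and 1.61 ± 0.66 (SE) that the main DESeq2 fit did not call. Without the block, DESeq2 called both with size factors from total counts, without vector control 2 and with opposite-strand counts summed. C06G1.t4 was also called in other fits without the block, among them those without *rpc-1* RNAi 1 and without vector control 1. The fits without *rpc-1* RNAi 2, without *rpc-1* RNAi 3 and without vector control 3 called neither. C34E11.t1, listed as an arginine tRNA of uncertain function, had 49.7, 120 and 150 in *rpc-1* RNAi, against 21.2, 29.9 and 55.1 in vector controls. F47E1.t3, with a proline anticodon but a body that fits threonine tRNAs best, had 89.1, 116 and 156 in *rpc-1* RNAi, against 38.5, 33.9 and 54.2 in vector controls. The last 2 of this end, ZK380.t2 and W03H1.t1, are annotated as pseudogenes, with changes of 1.07 and 0.92. All 6 had a control level of at most 1.16 normalized counts per base.

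**Figure D2:**
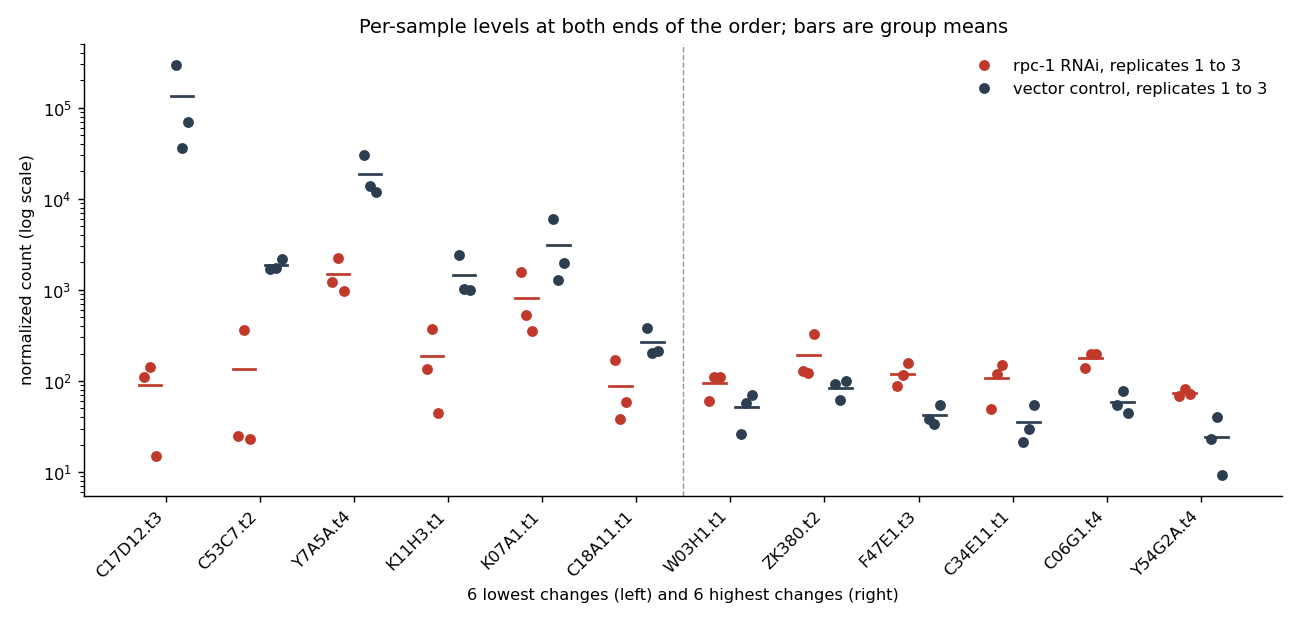
Normalized counts (vertical axis, log scale) of the 6 persisting tRNAs with the lowest and the 6 with the highest change (horizontal axis). Red points are the *rpc-1* RNAi samples and dark points to their right the vector controls, with bars at the group means. At the low end *rpc-1* RNAi samples lie below the controls apart from K07A1.t1, where the groups overlap, and at the high end both groups lie below 331 counts.

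Change and control level went in opposite directions across persisting tRNAs. Control level is the mean of log2(normalized count + 1) in vector controls minus the log2 length. Across the 69 members, Spearman's rho between change and control level was -0.65 and Pearson's r was -0.61, and without C17D12.t3 they were -0.63 and -0.59. The points share libraries, depth and reads of similar copies, so this is a description. In the lowest 23 members by control level the median change was 0.18, with 10 below 0, and all 5 members with a change above 1 were in this part. In the middle 23 the median was -0.83, with 21 below 0. In the highest 23 it was -1.01, with 22 below 0. Within the lowest, middle and highest 23 rho was -0.39, -0.48 and -0.16.

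The change contains the control value, so noise in the controls alone pushes this correlation down. With level read from a single vector control and change taken against the other 2, rho was -0.39, -0.57 and -0.50 for level from vector control 1, 2 and 3. In these splits the median change of the lowest 23 members was -0.05, 0.18 and -0.05. That of the middle 23 was -0.37, -0.60 and -1.20, and that of the highest 23 was -0.40, -1.24 and -1.08. With level from vector control 1 or 3 the middle and highest parts thus differed little. Against the mean level of both groups rho was -0.54, and against the level in *rpc-1* RNAi it was -0.29. Over the 687 transcripts without a tRNA id rho was -0.32 with shared controls and between -0.24 and -0.14 with split controls.

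**Figure D3:**
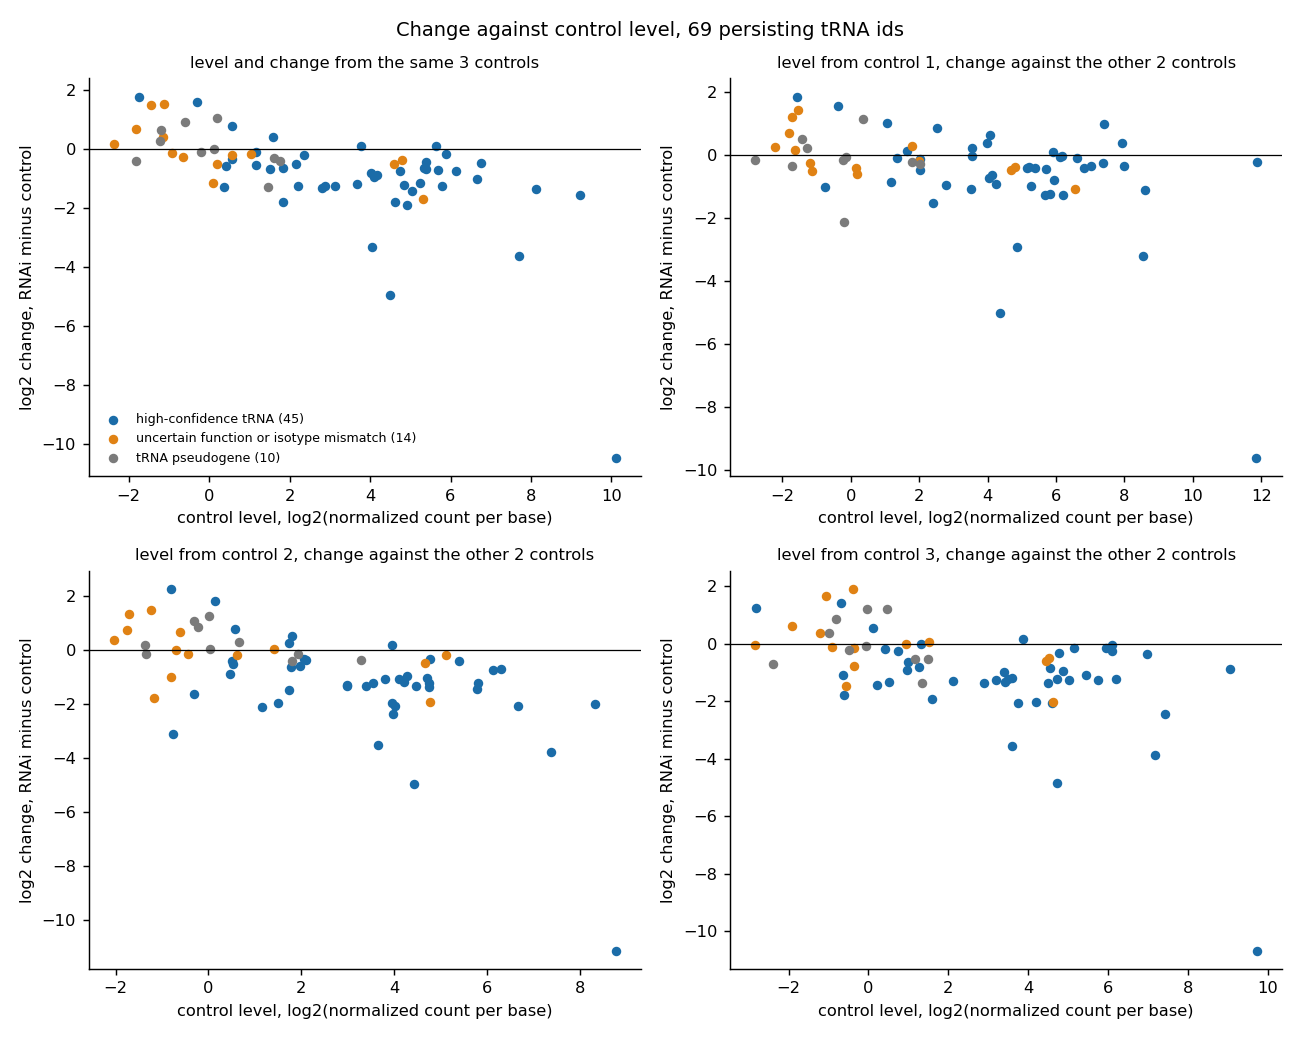
Log2 change (vertical axis) against control level as log2 normalized count per base (horizontal axis) for the 69 persisting tRNAs, coloured by annotation class. In the first panel both come from the same 3 vector controls, and in the others level comes from 1 control and change from the other 2. Points with a high level lie mostly below 0 in each panel, with rho of -0.65 in the first and between -0.57 and -0.39 in the others.

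Differences between samples of the same group also went with control level. Of 2 vector controls, the difference had a rho of -0.30, 0.29 and 0.50 with the level in the third. Of 2 *rpc-1* RNAi samples, the difference had a rho of 0.43, 0.56 and 0.32 with the mean control level. Replicate 1 was the highest of its group for 38 members in *rpc-1* RNAi and for 41 in vector controls, and in both groups for 33. In size these values overlapped those of the split comparison between the groups. The part of such differences in the relation was not tested.

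The rule bounds the plane in which this relation was read. The limit on the ratio bounds it from above. It removed 5 tRNAs with changes between 3.23 and 3.85 and control levels between 0.462 and 4.92 normalized counts per base. Without this limit rho was -0.67. The count minimum bounds the plane at low levels. At equal depth, a tRNA with a control count under 40 drops under 10 counts when it falls 4-fold, and 19 members had a lowest control count under 40. The lowest change among these 19 was -1.33. It belonged to C28A5.t1, which had control counts of 1239, 21 and 2816 and a control level of 17.4 normalized counts per base. This tRNA was thus low in vector control 2 only. The next was F31E9.t1 at -1.29, with control counts of 305, 29 and 51. When the only condition was at least 10 counts in every vector control, 93 tRNA ids remained and rho was -0.71. The 19 of them that were under 10 counts in an *rpc-1* RNAi sample had a median change of -10.61 and a median control level of 48.4 normalized counts per base, against 7.0 over the persisting tRNAs.

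Levels of the persisting tRNAs kept much of their order and lay closer together in *rpc-1* RNAi. The SD over members of the log2 level per base was 2.35 in *rpc-1* RNAi and 2.96 in vector controls, or 2.35 and 2.83 without C17D12.t3. By sample it was 2.90, 2.31 and 2.20 in *rpc-1* RNAi, against 3.50, 2.67 and 2.95 in vector controls, so the groups overlapped. The rho between the mean levels of both groups was 0.86.

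The 6 with the highest control level per base were C17D12.t3, C49F5.t1, C11G10.t1, Y7A5A.t4, W02H3.t1 and C28G1.t2. C49F5.t1, a histidine tRNA (anticodon GTG), had 73496, 7056 and 5812 normalized counts in *rpc-1* RNAi, against 272012, 22978 and 12407 in vector controls. In both groups replicate 1 stood far above the others, the groups overlapped, and DESeq2 gave no p for it. Its DESeq2 log2 fold change was -1.83 ± 1.28 (SE), against 0.70 without vector control 1 and -4.0 without *rpc-1* RNAi 1, so its direction turned when vector control 1 was left out. Leaving out either replicate 1 takes the high sample from 1 group only. Its same-numbered pairs had differences of -1.89, -1.70 and -1.09, and with the block DESeq2 gave -1.56 ± 0.29 (SE) and both tools called it lower. C11G10.t1, an arginine tRNA (anticodon TCT), had 14463, 5615 and 6013 in *rpc-1* RNAi, against 28567, 7415 and 38968 in vector controls. W02H3.t1, a leucine tRNA (anticodon TAG), had 7816, 5435 and 1664 in *rpc-1* RNAi, against 20884, 4525 and 6054 in vector controls, and without vector control 1 its DESeq2 log2 fold change was -0.09. C28G1.t2, a glycine tRNA (anticodon TCC), had 6768, 10223 and 2571 in *rpc-1* RNAi, against 9382, 5655 and 9109 in vector controls. The changes of C49F5.t1, C11G10.t1, W02H3.t1 and C28G1.t2 were -1.56, -1.36, -1.01 and -0.48.

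Persisting tRNAs took up most of the tRNA counts after *rpc-1* RNAi. They held 93.8% (Wilson 95% confidence interval 93.7 to 93.9), 90.6% (90.4 to 90.8) and 81.6% (81.3 to 81.9) of counts on all tRNA ids in *rpc-1* RNAi. In vector controls they held 46.2% (46.2 to 46.3), 55.7% (55.4 to 56.0) and 34.1% (34.0 to 34.2). The intervals cover counting error only. The mean was 88.7% ± 6.32 in *rpc-1* RNAi and 45.3% ± 10.8 in vector controls (SD, n = 3 each), and 31.0% ± 9.57 in vector controls without C17D12.t3. The rule favours this order, since it drops tRNAs that fell under 10 counts. C49F5.t1 alone held 42.1%, 10.2% and 12.7% of the counts on persisting tRNAs in *rpc-1* RNAi, against 34.1%, 16.3% and 5.95% in vector controls. All tRNA ids together held 1.12%, 0.503% and 0.363% of the table in *rpc-1* RNAi, against 9.88%, 1.35% and 3.61% in vector controls. Of all counts in the table persisting tRNAs held 1.05%, 0.456% and 0.296% in *rpc-1* RNAi, against 4.57%, 0.753% and 1.23% in vector controls, so that the groups overlapped. The mean was 0.601% ± 0.398 in *rpc-1* RNAi and 2.18% ± 2.08 in vector controls (SD, n = 3 each). Without *rpc-1* RNAi 1 the RNAi mean was 0.376%, and without vector control 1 the control mean was 0.992%.

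The spread of changes was set against that between samples of the same group. Between an *rpc-1* RNAi and a vector control sample, the SD over members of the log2 difference was between 1.41 and 2.72 in the 9 pairs. Between 2 *rpc-1* RNAi samples it was between 1.04 and 1.62, and between 2 vector controls between 1.12 and 1.55. Without C17D12.t3 the 9 pairs ran between 1.07 and 2.26, so that these ranges overlap. The distance between quartiles had a median of 1.86 over the pairs between groups. It was 2.29 for 2 *rpc-1* RNAi samples and 1.88 for 2 vector controls, so by this measure pairs within a group were in median not narrower. For a single member the median SD of log2 levels was 0.90 among *rpc-1* RNAi samples and 0.72 among vector controls, and for 26 of the 69 the size of the change was above both of its own SDs.

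**Figure D4:**
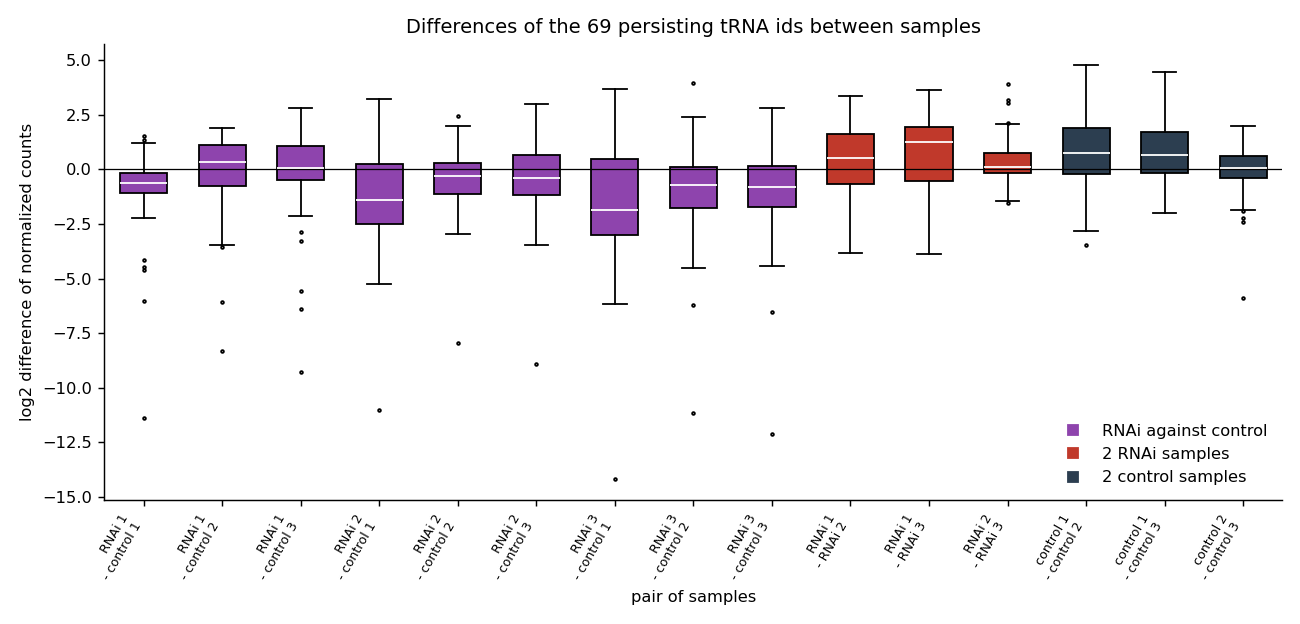
Log2 differences of normalized counts (vertical axis) of the 69 persisting tRNAs for each pair of samples (horizontal axis). Boxes show quartiles, whiskers the points within 1.5 box lengths and dots the rest, for 9 pairs of *rpc-1* RNAi against vector control, 3 pairs of RNAi samples and 3 pairs of controls. The distance between quartiles runs between 0.93 and 3.52 in pairs between groups. For 2 RNAi samples it runs between 0.90 and 2.48, and for 2 controls between 0.99 and 2.09. The lowest dot in each between-group pair is C17D12.t3.

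Annotation, which the rule did not use, went with the change. The study lists for each tRNA its name and confidence class in the Genomic tRNA Database, and all 59 annotated members were matched. The 45 high-confidence tRNAs among the members (of 109 in the table) had a median change of -0.83. The 14 of uncertain function or with a body that fits another amino acid (of 32) had a median of -0.19, and the 10 pseudogenes (of 84) had a median of -0.03. Their levels differed as well, with medians of 20.7, 1.07 and 0.99 normalized counts per base in vector controls. Within the high-confidence tRNAs the rho of change with control level was -0.39, and within the other 24 it was -0.65. Which of class and level goes with the change was not tested.

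Serine tRNAs were the largest amino acid group, with 10 of the 16 listed. All 10 changes were below 0, with a median of -1.52, and for 5 of them the groups did not overlap (10.3% of the 817 transcripts were lower without overlap). The median control level of the 10 was 33.0 normalized counts per base, against 7.0 over all members. The changes ran between -4.94 (C53C7.t2) and -0.16 (Y51H4A.t2). Neighbours on chromosome X stood apart: Y7A5A.t4 had a change of -3.62, and Y7A5A.t1 (anticodon AGA, 15773527 to 15773608), which lies nearby on the other strand, had one of -0.63. Y7A5A.t1 had 3843, 2795 and 936 normalized counts in *rpc-1* RNAi, against 4309, 1519 and 5667 in vector controls. The groups of Y7A5A.t1 overlapped widely.

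Aspartate tRNAs, 4 of 6 listed and all with anticodon GTC, went the other way in 3 of 4. Y54G2A.t4, C06G1.t4 and F22F1.t5 had changes of 1.78, 1.60 and 0.79, with control levels of 0.334, 0.819 and 1.53 normalized counts per base. Y54G2A.t2, near Y54G2A.t4 on chromosome IV, had a control level of 75.3 and a change of -0.74. It had 3386, 3038 and 2672 normalized counts in *rpc-1* RNAi, against 8072, 5026 and 3156 in vector controls. Of the 4, Y54G2A.t2 held most of the counts, and the counts summed over the 6 listed GTC tRNAs had a change of -1.37.

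Leucine tRNAs (4 of 12) all had changes below 0, with a median of -0.85. Beside C17D12.t3 these were W02H3.t1, C04A11.t1 and F02D10.t3, with changes of -1.01, -0.69 and -0.10. Threonine tRNAs (3 of 5, all with anticodon CGT) had changes between -1.25 and -1.20, and arginine tRNAs (8 of 16) had a median of -0.27. The 3 tyrosine, 3 valine and 4 alanine tRNAs had medians of -1.29, -1.15 and -1.03. The tryptophan tRNA K06G5.t1 had 1291, 807 and 1167 normalized counts in *rpc-1* RNAi, against 830, 1110 and 1055 in vector controls, a change of 0.11. The selenocysteine tRNA K11H12.t1, which reads a stop codon in selenoprotein mRNA, had 1101, 297 and 176 in *rpc-1* RNAi, against 1442, 359 and 168 in vector controls, a change of -0.20. In both tRNAs the groups overlapped. Of cysteine (3 listed), elongator methionine (1) and initiator methionine (1), no tRNA met the rule.

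Of the 33 anticodons among members, 16 had more than 1 member. The narrowest ranges of change were in CGT (0.06), CCG (0.20) and CTT (0.22), and the widest in AGG (3.28), AGA (2.71) and GTC (2.52). No 2 members had the same mature sequence name in the tRNA database. The last part of each full name numbers the gene copies of 1 mature sequence, and it was above 1 for 12 of the 59 annotated members, so these have further copies with the same mature sequence. Salmon divides reads between similar tRNAs, so single copies are uncertain. When counts were summed over all listed tRNAs of an anticodon, the sums had a median change of -1.21 and an SD of 2.72 over the 33 anticodons. For valine AAC, C16H3.t1 had a change of -1.24, and the 4 listed tRNAs summed had one of -7.94. For arginine CCT, Y102E9.t1 had a change of -0.12, and both listed tRNAs summed had one of -9.40. For lysine CTT, F37A4.t1 and T10B9.t1 had changes of 0.18 and 0.40, and the 5 listed tRNAs summed had one of 3.17. In these anticodons the persisting tRNAs were a small part of the counts in at least 1 group.

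Members whose anticodon and body name different amino acids numbered 6, and 5 of these bodies fit leucine tRNAs best. The 5 were C36F7.t1 (glutamine anticodon), C36F7.t2 (isoleucine), T22A3.t2 (glycine), Y102E9.t1 (arginine) and F37A4.t1 (lysine). Their changes were -1.15, -0.50, -0.20, -0.12 and 0.18, and their control levels lay between 0.187 and 1.70 normalized counts per base. All 5 had groups that overlapped.

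Positions here and above are those of the listed ids. The 141 tRNAs matched to the database have 140 distinct mature sequence names, so further copies of a sequence are mostly not listed. At least the 12 members with such copies may hold counts from copies elsewhere, among them C17D12.t3, C53C7.t2, Y7A5A.t4 and C49F5.t1. By position, 34 members lay on chromosome X (of 75 listed tRNA ids), 10 on IV (of 28), 9 on I (of 22), 6 on III (of 22), and 5 each on II (of 21) and V (of 59). The median change was -0.63 on X, -0.12 on IV, -0.50 on I, -0.83 on III, -0.43 on II and -1.20 on V. In the same order the median control levels were 11.9, 4.19, 1.70, 9.64, 1.53 and 25.6 normalized counts per base. Intergenic members (44) had a median of -0.66, those in an intron of a gene on the same strand (17) -0.55, and those in an intron of a gene on the opposite strand (8) -0.14. Members had lengths between 71 and 115 bases. The 21 of at least 80 bases, which include the serine tRNAs of usual length, had a median of -0.69, and the 48 shorter ones had a median of -0.50. Their median control levels were 22.8 and 4.02 normalized counts per base. The 6 members annotated with 2 exons all had changes below 0, with a median of -0.79. F47E1.t3, to which the study's list gives an intron and the annotation 1 exon, had a change of 1.48.

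Some tRNA genes have a listed ncRNA on the opposite strand, and every persisting tRNA of this kind had a change below 0. Among the members 16 overlapped such an ncRNA by at least 40 bases, with a median change of -1.20 over these 16. The 53 members without one had a median of -0.41. Control levels differed as well, with medians of 23.2 normalized counts per base with such an ncRNA and 3.52 without. Which of the ncRNA and the level goes with the change was not tested. The opposite ncRNAs had a median change of 0.62, and 10 of the 16 were above 0. Some of these ncRNAs had almost no counts: F49E7.3 and F52E10.8 stayed under 10 counts in every sample. C16H3.7 had 0 in 4 of the 6 samples, but 138 counts in *rpc-1* RNAi 1 and 363 in vector control 2. Over the 14 that reached 10 counts in a sample the median was 0.64, with 9 above 0. For 5 of the ncRNAs (C17D12.15, Y7A5A.14, K11H3.11, K07A1.19 and K02A4.9) every *rpc-1* RNAi sample lay above every vector control (11.3% of all 817 transcripts), and DESeq2 called Y7A5A.14 and K07A1.19 higher (3.14% of all tested).

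At C17D12.t3 the opposite ncRNA C17D12.15 had 159054, 38012 and 33920 normalized counts in *rpc-1* RNAi, against 31133, 13170 and 18471 in vector controls. Of the counts of both strands together it held 99.9%, 99.6% and 99.96% in *rpc-1* RNAi, against 9.45%, 26.8% and 20.9% in vector controls. The sum was 159165, 38155 and 33935 in *rpc-1* RNAi, against 329616, 49226 and 88522 in vector controls, so that the summed groups overlapped. Its change was -0.93, where the tRNA alone had -10.48. At Y7A5A.t4 the sum had a change of -2.64 and at K11H3.t1 one of -0.39. No source says whether the strand of reads was used in the counting, so at these genes less tRNA and a different division of reads between strands cannot be told apart.

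Over all 16 the sums had a median change of -0.61, between -2.64 and 0.34, and 14 were below 0. Groups did not overlap for 4 of the tRNAs alone, all lower (C17D12.t3, Y7A5A.t4, K11H3.t1 and K02A4.t1), of which Y7A5A.t4 alone stayed apart in the sums. The sums without overlap were 2 lower (Y7A5A.t4 and C16H3.t1) and 1 higher (F02D10.t3), against 21.5% of the 817 transcripts in either direction. When these sums stood in for the 16 tRNAs, the SD of change over all 69 was 1.01 and the rho with control level was -0.60.

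**Figure D5:**
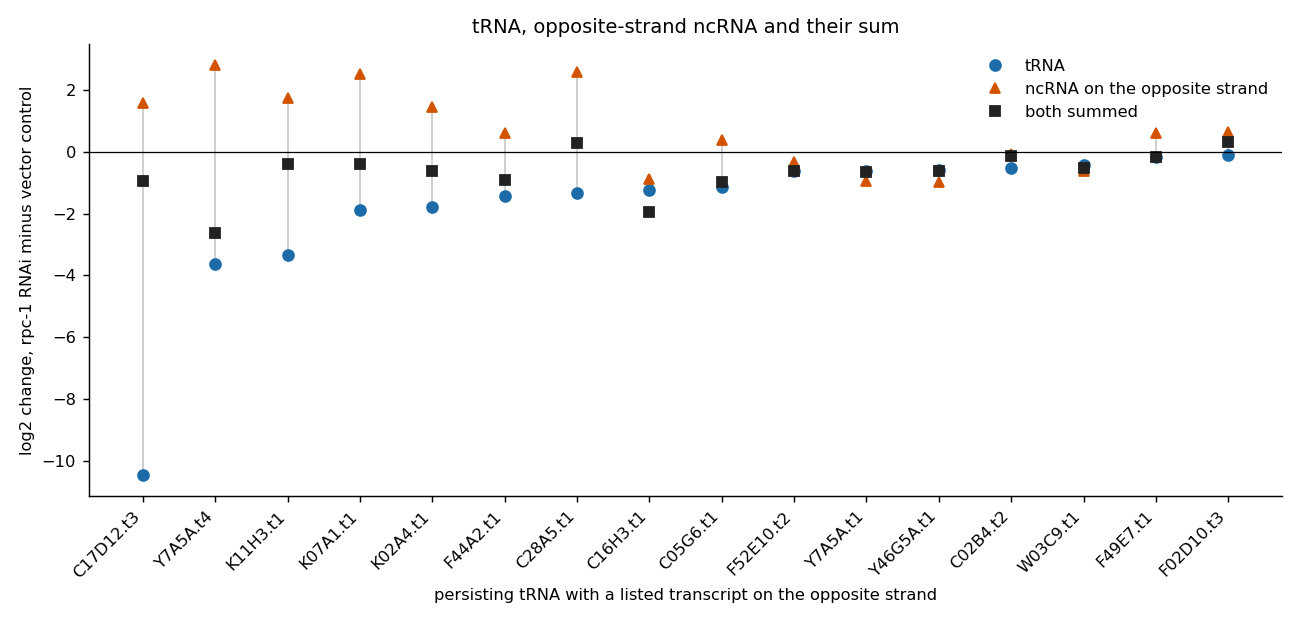
Log2 change (*rpc-1* RNAi minus vector control, vertical axis) of the 16 persisting tRNAs with a listed ncRNA on the opposite strand (horizontal axis, by change of the tRNA). Circles are the tRNA, triangles the opposite ncRNA and squares the counts of both summed. All circles lie below 0, 14 squares lie below 0, and the square of C17D12.t3 stands at -0.93 where its circle stands at -10.48.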

How the data were processed

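The deposited values are estimated counts per short transcript. Per the study's methods, the authors trimmed reads with Cutadapt v2.10, assigned them with Salmon v0.13.2 to a decoy-aware WBcel235 index of all RNAs, and imported them with tximport. Salmon can divide reads between similar copies and overlapping transcripts, and strand use is not given in the sources used here. All values were whole, so rounding changed none. Positions and gene types came from the Ensembl annotation of WBcel235 (2506 of 2526 ids matched), and tRNA names from the study's annotation list.

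Members and lists were chosen with earlier results of these data known. The text names the 6 lowest and highest changes, the 6 highest control levels, the members at each limit, examples with opposite-strand ncRNAs and the anticodons of widest and narrowest range, and other members as examples chosen after their values were seen.

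DESeq2 1.42.0 (Wald test, Benjamini-Hochberg 10% FDR, group only) in R 4.3.3 was fitted to all transcripts, and edgeR 4.0.16 (quasi-likelihood) was an alternative. Same-numbered samples of both groups correlated in their deviations from group means (0.55, 0.20 and 0.40 over 817 transcripts), so the numbers in the titles were taken as pairs for a blocked fit. Samples with different numbers had values between -0.41 and 0.14. Over members the same-numbered values were 0.74, 0.24 and 0.61, and *rpc-1* RNAi 3 with vector control 2 had 0.28. The pairing thus rests on these same data and is weak for pair 2. Changes used a pseudocount of 1. Size factors from total counts moved the median of all transcripts by 0.17 on the log2 scale. On simulated data DESeq2 recovered 155 of 200 8-fold changes with 37 false among 192 calls, and edgeR 136 with 14 false among 150. Other alternatives were size factors, limits of the rule and leaving out each sample. Per-sample totals lay between 9362216 and 21685824.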

Additional observations from a re-analysis of the deposited data

How the results depend on the processing

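The median change of persisting tRNAs stayed below 0 and its correlation with control level negative under every alternative run. The median was between -0.96 and -0.30 when each sample was left out. With counts summed by anticodon over all listed tRNAs the median was -1.21 and the SD 2.72. Those sums include tRNAs outside the set, so they describe another set than the members. The SD of changes was 1.12 without C17D12.t3 and 1.01 with opposite-strand counts summed (added after seeing the data). The rho was -0.39 with level from vector control 1, -0.29 with level in *rpc-1* RNAi and -0.39 in high-confidence tRNAs (added after seeing the data), and between -0.73 and -0.47 when each sample was left out. A mean of 10 counts in place of a minimum gave 118 members. The control share was 31.0% without C17D12.t3.

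Counts of calls depended on the model. Over all transcripts 79 calls became 278 with the replicate block and 147 with it in edgeR, 128 with total counts, 127 with size factors that left out Pol III products and 124 with opposite-strand counts summed, and 74 to 180 when each sample was left out. Members called lower were 4, against 25 with the block, 2 in edgeR, 9 in edgeR with the block, 3 with opposite-strand counts summed (C17D12.t3 and K11H3.t1 lost, C16H3.t1 gained) and 4 to 19 when each sample was left out. Members called higher were 0, against 6 with the block, 3 in edgeR with the block, 2 with a minimum mean count of 10, 4 with total counts, 2 with size factors that left out Pol III products, 3 with opposite-strand counts summed and 0 to 3 when each sample was left out. The causes were not tested. With 3 samples a group, members at few counts have wide errors, and no depth beyond these counts was used. For the 18 members at the ends of the order, at the limits of the rule or with the highest control level, alternative fold changes were compared. Of these, 189 stayed within 1 SE of the value given and 9 moved by more. The sign changed for 3 members (C49F5.t1, C28G1.t2 and F37A4.t1), none of them called in the main DESeq2 fit. Without *rpc-1* RNAi 1, DESeq2 without the block did call C49F5.t1, with a log2 fold change of -4.0. Fold changes of the other members named as examples were not listed one by one under the alternatives.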
